A study of Mus musculus with 4 samples.

Results

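Prostaglandins and leukotrienes are short-lived lipid signals made from arachidonic acid. Cyclooxygenases turn arachidonic acid into the precursor of the prostaglandins, and the terminal prostaglandin E synthase and the EP receptors make and sense prostaglandin E2. 5-lipoxygenase, with its helper FLAP, turns it into leukotriene A4, from which separate enzymes make leukotriene B4, an attractant for neutrophils, and the cysteinyl leukotriene C4. In the liver, macrophages, monocytes and granulocytes carry much of this machinery.

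The expression of 10 genes of these pathways was described in myeloid cells sorted from mouse livers. They were chosen by name for their place in the pathway: the leukotriene genes Alox5, Alox5ap, Lta4h and Ltc4s, the lipoxygenase gene Alox15, the prostaglandin enzymes Ptgs1, Ptgs2 and Ptges, and the receptors Ptger2 and Ptger4. All 10 were found among the 55487 genes of the count table, and all 10 passed the filter on low counts that left 13496 genes for testing. Poly(A) RNA was sequenced from LysM-Cre IL10R fl/fl mice (2 libraries) and LysM-Cre IL10R wt/wt mice (2 libraries), so both groups carry the Cre recombinase. LysM-Cre expresses Cre from the lysozyme 2 locus, which is active in monocytes, macrophages and granulocytes, and Cre deletes DNA between loxP sites in those cells. Livers were perfused and digested, and cells with CD45 and CD11b and without CD3 and CD11c were sorted. The labels give no age, sex or treatment, nor do they say if each library is from its own animal, so the p-values measure the spread between these libraries.

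Total counts were 17750343 and 17154042 in fl/fl libraries 1 and 2, and 22694136 and 26441014 in wt/wt libraries 1 and 2. The labels do not name the floxed chain of the IL-10 receptor; Il10ra, the ligand-binding chain, was at 69.3 and 14.8 CPM (counts scaled to library size with TMM factors) in fl/fl and 1111 and 993 CPM in wt/wt. Itgam, the gene of CD11b, was at 454 and 368 CPM in the fl/fl pair and at 383 and 501 CPM in the wt/wt pair, and Cd3e had 0 counts in 3 libraries and 2 counts in wt/wt 2. Itgax, the gene of CD11c, by which cells were to be excluded, was at 24.6 and 47.1 CPM in fl/fl and 158 and 134 CPM in wt/wt. It fell (adjusted p = 0.0197, edgeR), and whether the mix of sorted cells or the RNA per cell differed was not tested. The fl/fl libraries stood apart from each other. Xist was counted 4298 times in fl/fl 2 and 0 times elsewhere, so by this gene fl/fl 2 came from a female, and sex cannot be told apart from other differences of that library. Of 11 mature neutrophil markers, 9 rose in fl/fl and 0 fell, and their summed level was 37194 and 17143 CPM in fl/fl 1 and 2 and 3184 and 3979 CPM in wt/wt 1 and 2. Of 8 granulocyte precursor markers, 7 rose, with sums of 1675 and 552 CPM in fl/fl and 62.6 and 53.6 CPM in wt/wt. The Kupffer cell markers Clec4f, Vsig4 and Timd4 were under 1 CPM in every library. The other macrophage markers C1qa, C1qb and C1qc fell, 3 of 6 tested on the macrophage list, whose sum was 298 and 212 CPM in fl/fl and 914 and 903 CPM in wt/wt. In such bulk samples, more cells of a type and more RNA per cell cannot be told apart.

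Of the 10 genes, 1 rose and 1 fell in fl/fl at an adjusted p under 0.05 (edgeR quasi-likelihood test, Benjamini-Hochberg over all tested genes). Alox5 was higher by 2.99-fold and Ptger4 was lower by 2.88-fold. Among all tested genes, 2.69% were higher and 3.16% were lower by the same rule, 5.85% in either direction. The libraries of the genotypes did not overlap for 7 of the 10 genes, with 3 higher and 4 lower in fl/fl. Over all tested genes 54.4% did not overlap, 28.1% being higher and 26.3% lower, so 3 of 10 higher was near the share over all genes. The median log2 fold change was 0.35 over the 10 genes and 0.02 over all tested genes. The median of the 10 genes rested on single fl/fl libraries. Dropping fl/fl 1 turned it to −0.40, and dropping fl/fl 2 brought it to 0.02. With wt/wt 1 or wt/wt 2 dropped instead, it stayed at 0.30 or 0.40. The median therefore sets no direction for the 10 genes as a set. The 3 genes above both wt/wt libraries were Alox5, Alox5ap and Lta4h, which together make leukotriene B4. The 4 below were Ptgs2, Ptger2, Ptger4 and Ltc4s. With 5 and 0 counts in fl/fl and 18 and 30 counts in wt/wt, Ltc4s passed the filter on low counts only through wt/wt. Its place among the 4 is therefore not independent of the filter.

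**Figure D1:**
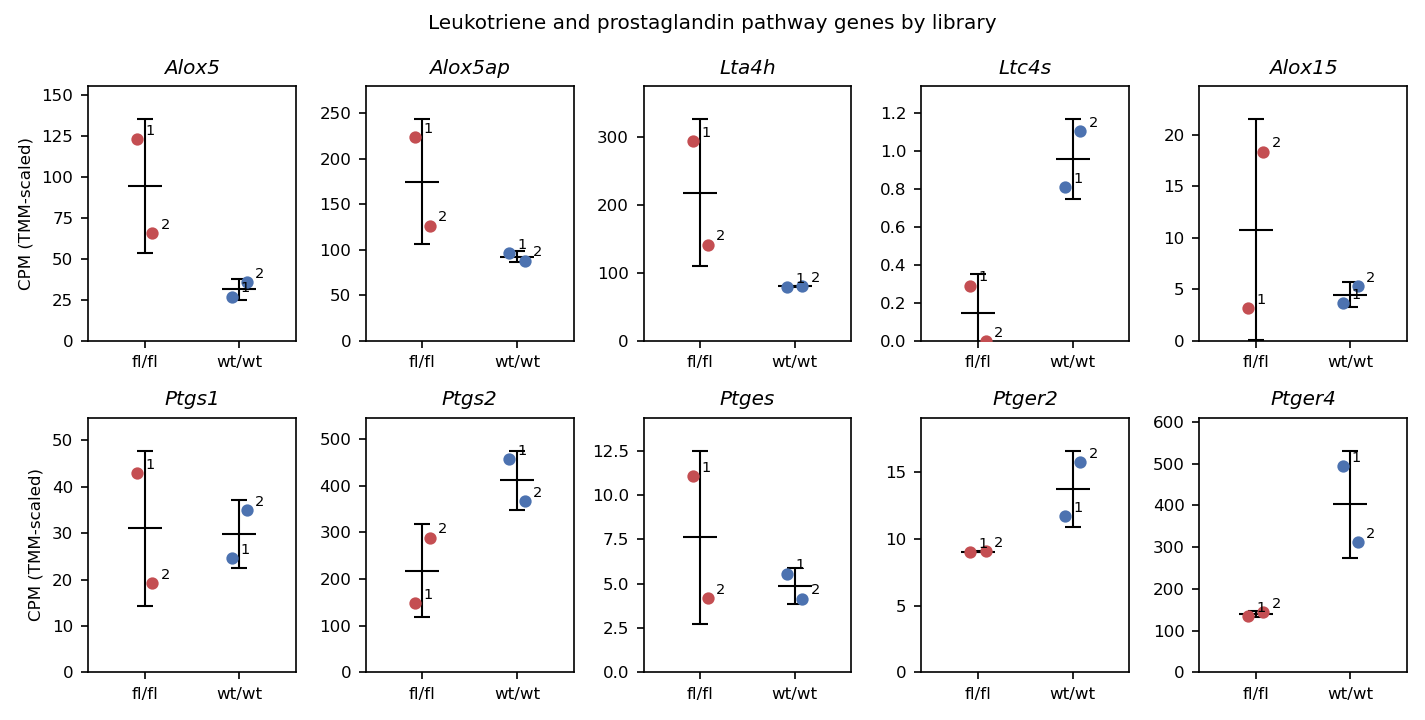
Level of each of the 10 genes in CPM (vertical axes start at 0) in the fl/fl libraries, left, and the wt/wt libraries, right. Points are libraries, numbered by replicate, and bars are the mean ± SD (n = 2 each); the fl/fl bar of Ltc4s passes below 0 and is cut by the axis. Alox5, Alox5ap and Lta4h lie above both wt/wt libraries in both fl/fl libraries, and Ptgs2, Ptger2, Ptger4 and Ltc4s lie below them.

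Alox5 (ENSMUSG00000025701; GRCm38 chromosome 6, 116410077 to 116461178, minus strand) encodes 5-lipoxygenase, the enzyme that commits arachidonic acid to the leukotrienes. It held 123 and 65.5 CPM in fl/fl libraries 1 and 2, and 27.0 and 36.0 CPM in wt/wt libraries 1 and 2. Both fl/fl libraries were above both wt/wt libraries, and fl/fl 1 was 1.88 times fl/fl 2. The means were 94.3 ± 40.8 CPM in fl/fl and 31.5 ± 6.30 CPM in wt/wt (SD, n = 2 each), and Alox5 rose by 1.58 ± 0.32 on the log2 scale (SE; adjusted p = 0.0382, edgeR). In fits without a fl/fl library, here and for the other genes, the wt/wt pair alone sets the spread, which the lone fl/fl library is taken to share. The log2 fold change was 1.02 without fl/fl 1 (adjusted p = 0.0369, edgeR) and 1.97 without fl/fl 2 (adjusted p = 0.000667, edgeR). Without wt/wt 1 or wt/wt 2 the call was lost, the log2 values being 1.34 and 1.81 with adjusted p = 0.325 and 0.139 (edgeR).

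Alox5ap (ENSMUSG00000060063; chromosome 5, 149264767 to 149288153, plus strand) encodes FLAP, the membrane protein that presents arachidonic acid to 5-lipoxygenase. Alox5ap held 223 and 127 CPM in fl/fl libraries 1 and 2, and 96.8 and 88.2 CPM in wt/wt libraries 1 and 2. The libraries did not overlap, but the difference did not pass (log2 fold change 0.92 ± 0.27, SE; adjusted p = 0.101, edgeR), with a 95% interval of 0.28 to 1.56. Without fl/fl 1 it was 0.42, and without fl/fl 2 it was 1.28 and passed (adjusted p = 0.00284, edgeR). On the opposite strand, Gm19719 shares 13.3% of the exonic length of Alox5ap. Gm19719 had 181 and 81 counts in fl/fl and 46 and 58 counts in wt/wt, while Alox5ap itself had 3835 and 2219 counts in fl/fl and 2155 and 2393 counts in wt/wt.

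Lta4h (ENSMUSG00000015889; chromosome 10, 93453411 to 93484875, plus strand) encodes leukotriene A4 hydrolase, which makes leukotriene B4. Lta4h held 294 and 142 CPM in fl/fl libraries 1 and 2, and 79.3 and 80.9 CPM in wt/wt libraries 1 and 2. The wt/wt libraries lay within 2 CPM of each other, and both fl/fl libraries were above them. The log2 fold change of 1.45 ± 0.33 (SE) was just outside the threshold (adjusted p = 0.0525, edgeR), with a 95% interval of 0.67 to 2.22. Lta4h passed under 8 of 12 alternative settings, among them the fits without fl/fl 1 (0.79) and without fl/fl 2 (1.89).

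Each of the 3 exceeded its fl/fl 2 level in fl/fl 1, by 1.88-fold for Alox5, 1.76-fold for Alox5ap and 2.08-fold for Lta4h. The mature neutrophil and granulocyte precursor sums were higher in fl/fl 1 in the same way. So were the monocyte, the macrophage and the basophil and mast cell sums. The monocyte sums were 16137 and 9622 CPM in fl/fl 1 and 2, and 11837 and 9476 CPM in wt/wt 1 and 2. Chil3 made up most of the fl/fl 1 sum, at 8404 and 2069 CPM in fl/fl 1 and 2. Ly6c2, F13a1, Fn1 and Vcan were also higher in fl/fl 1. Ccr2 (1304 and 1567 CPM in fl/fl 1 and 2) and Plac8 (2245 and 3023 CPM) were higher in fl/fl 2, so the monocyte markers did not share 1 pattern. The eosinophil, dendritic cell and platelet sums were higher in fl/fl 2. The part of these cell types in the 3 differences was not tested. Within a library, Alox5ap per kilobase of exon was 5.24 and 5.59 times Alox5 in fl/fl 1 and 2, and 10.4 and 7.09 times Alox5 in wt/wt 1 and 2. The ratio was thus lower in both fl/fl libraries, a value that does not depend on library scaling; with 2 libraries against 2 an exact permutation test cannot give a p below 0.333.

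**Figure D2:**
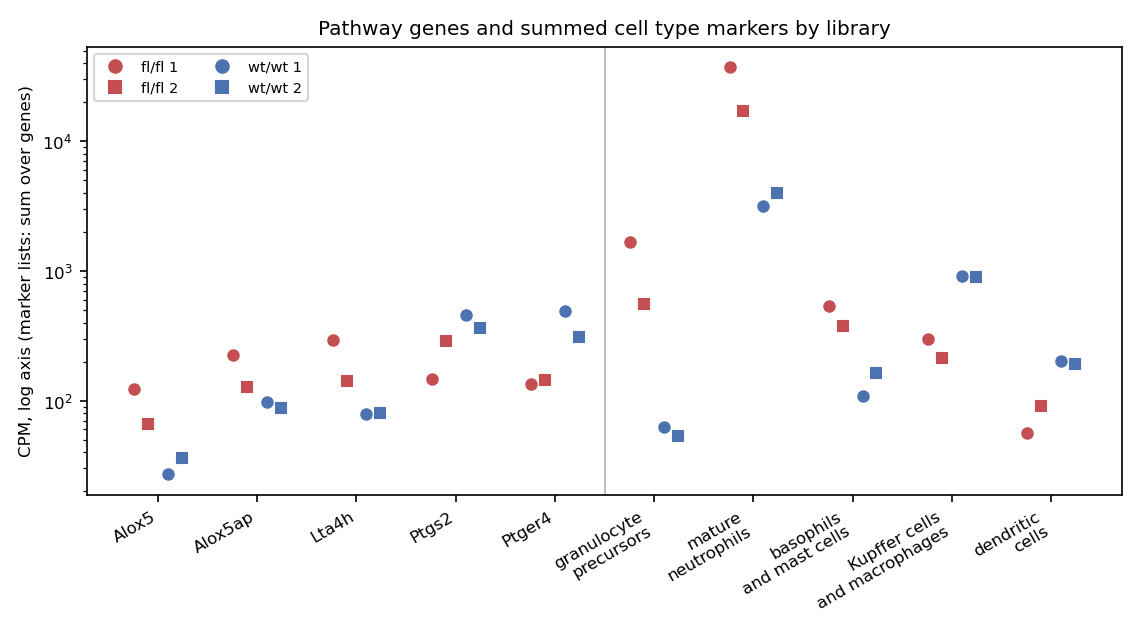
Levels of 5 pathway genes (left) and summed levels of 5 marker lists (right) in each library, in CPM on a log axis, with fl/fl in red, wt/wt in blue, replicate 1 as circles and replicate 2 as squares. Alox5, Alox5ap and Lta4h were highest in fl/fl 1 and next in fl/fl 2, as were the summed neutrophil markers at 37194 and 17143 CPM; Ptger4 and the summed macrophage markers were lower in both fl/fl libraries. Of the macrophage markers, C1qa, C1qb and C1qc fell and Adgre1 did not pass. Hdc makes up most of each basophil and mast cell sum, and Itgax most of the dendritic cell sum in fl/fl 2 and both wt/wt libraries.

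RefSeq (GRCm38.p6) gave a promoter, from 250 bases before to 50 after the start of the gene, for 8 of the 10 genes, not for Alox5ap and Alox15. The promoters of Alox5 and Lta4h are shown because these genes of the leukotriene B4 route had the largest positive fold changes among the 10. Capitals mark matches, on either strand, to any of 6 motifs. These were the TATA box searched as the letters TATAAA, the GC box written as the letters GGGCGG, the palindromic E-box with the letters CACGTG, a site of the factor AP-1 with the letters TGANTCA, a site of C/EBP factors with the letters TTGCNNAA, and the core bound by the factor PU.1 with the letters GAGGAA. Alox5 lies at chr6:116461129-116461428 on the minus strand and Lta4h at chr10:93453146-93453445 on the plus strand.
Alox5: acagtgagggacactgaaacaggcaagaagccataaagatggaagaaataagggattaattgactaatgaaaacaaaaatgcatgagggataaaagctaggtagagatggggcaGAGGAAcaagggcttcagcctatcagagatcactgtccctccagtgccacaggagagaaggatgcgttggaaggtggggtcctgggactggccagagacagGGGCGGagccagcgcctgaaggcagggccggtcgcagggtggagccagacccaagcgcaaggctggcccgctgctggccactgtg
Lta4h: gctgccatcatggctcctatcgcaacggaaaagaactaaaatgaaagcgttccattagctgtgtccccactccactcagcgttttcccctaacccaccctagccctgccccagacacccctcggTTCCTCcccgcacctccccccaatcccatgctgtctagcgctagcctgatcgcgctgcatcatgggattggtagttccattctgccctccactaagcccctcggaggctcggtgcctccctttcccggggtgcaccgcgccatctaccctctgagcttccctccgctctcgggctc
Both windows held the GAGGAA core, at −136 from the start in Alox5 and, on the other strand as TTCCTC, at −126 in Lta4h. This core occurred in 28.3% of 32851 promoters of the same length. Alox5 also held a GC box at −35, a motif found in 35.7% of promoters. A match describes the letters and is not evidence of binding.

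Ltc4s and Alox15 were at low levels. Ltc4s (ENSMUSG00000020377; chromosome 11, 50236461 to 50238616, minus strand) encodes leukotriene C4 synthase, which joins leukotriene A4 to glutathione. Ltc4s had 5 and 0 counts in fl/fl 1 and 2, and 18 and 30 counts in wt/wt 1 and 2, which is 0.291 and 0 CPM in fl/fl and 0.809 and 1.11 CPM in wt/wt. A count of 0 allows up to 3 counts, or 0.171 CPM in fl/fl 2. The wt/wt mean of 0.957 CPM was 3.29 times the level of fl/fl 1 and, against that limit, at least 5.59-fold higher than fl/fl 2. The fitted difference did not pass (log2 fold change −2.68 ± 1.22, SE; adjusted p = 0.26, edgeR). Gm26542 on the opposite strand shares 26.4% of the exonic length of Ltc4s, at 1 and 4 counts in fl/fl and 9 and 30 counts in wt/wt, so without a known strand setting these few reads cannot be told apart. Basophils and mast cells also make leukotriene C4: of 9 tested markers Hdc rose and 0 fell, with sums of 538 and 376 CPM in fl/fl and 108 and 164 CPM in wt/wt. Hdc made up most of these sums, and the other markers summed to 68.6 and 51.2 CPM in fl/fl and 23.2 and 35.5 CPM in wt/wt; their part was not tested.

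Alox15 (ENSMUSG00000018924; chromosome 11, 70344152 to 70352031, minus strand) encodes the mouse 12/15-lipoxygenase, known from peritoneal macrophages and eosinophils. Alox15 held 3.20 and 18.4 CPM in fl/fl libraries 1 and 2, and 3.64 and 5.34 CPM in wt/wt libraries 1 and 2. Only fl/fl 2 was high, at 5.74 times fl/fl 1, and fl/fl 1 was the lowest of the 4 libraries. Its log2 fold change of 1.26 ± 0.72 (SE) did not pass (adjusted p = 0.367, edgeR), with 1.99 when fl/fl 1 was left out, which passed (adjusted p = 0.00635, edgeR), and −0.48 when fl/fl 2 was. The eosinophil markers summed to 46.5 and 64.3 CPM in fl/fl and 27.0 and 46.5 CPM in wt/wt; of 4 tested, Prg2 rose (0.990 and 2.68 CPM in fl/fl and 0 in both wt/wt libraries) and the others did not pass. Ear2 made up most of these sums, and without it they were 5.47 and 18.5 CPM in fl/fl and 5.75 and 5.82 CPM in wt/wt, high in fl/fl 2 alone, as Alox15 was. Among them, Ccr3, an eosinophil chemokine receptor, was at 0.757 and 7.76 CPM in fl/fl and 1.35 and 1.88 CPM in wt/wt. This pattern was not particular to eosinophil markers, as the hepatocyte markers Ttr and Cyp2e1 were also high in fl/fl 2 alone. Ttr was at 0.815 and 7.19 CPM in fl/fl and 1.17 and 1.88 CPM in wt/wt. The hepatocyte markers Apoa1 and Fgb were instead highest in wt/wt 1. The eosinophil peroxidase gene Epx was at 0 in 3 libraries and at 0.116 CPM in fl/fl 1. The part of eosinophils in the Alox15 level was not tested.

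Ptgs1 (ENSMUSG00000047250; chromosome 2, 36230426 to 36252272, plus strand) encodes the constitutive cyclooxygenase, COX-1. Ptgs1 held 42.9 and 19.2 CPM in fl/fl libraries 1 and 2, and 24.6 and 35.0 CPM in wt/wt libraries 1 and 2. The wt/wt libraries lay between the fl/fl libraries, with a log2 fold change of 0.06 ± 0.38 (SE; 95% interval −0.84 to 0.96; adjusted p = 0.954, edgeR). Its direction rested on single libraries, since leaving out fl/fl 1 gave −0.67 and leaving out fl/fl 2 gave 0.53. Platelets also carry Ptgs1: their markers summed to 21.3 and 36.5 CPM in fl/fl and 23.7 and 28.0 CPM in wt/wt, and of 5 tested Pf4 fell and 0 rose. Itgb3 made up most of the fl/fl sums, at 13.2 and 23.0 CPM in fl/fl and 9.12 and 10.1 CPM in wt/wt. Gp1bb was at 0 in all libraries, but 92.9% of its exonic length is shared with genes on the same strand. How such shared reads were assigned is not given, so this 0 cannot be read as absence.

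Ptgs2 (ENSMUSG00000032487; chromosome 1, 150100031 to 150108227, plus strand) encodes COX-2, the cyclooxygenase induced in inflammation. Ptgs2 held 148 and 289 CPM in fl/fl libraries 1 and 2, and 456 and 366 CPM in wt/wt libraries 1 and 2. Both fl/fl libraries were below both wt/wt libraries, with fl/fl 1 the lowest. The means were 218 ± 99.7 CPM in fl/fl and 411 ± 63.7 CPM in wt/wt (SD, n = 2 each). The difference did not pass (log2 fold change −0.91 ± 0.31, SE; adjusted p = 0.147, edgeR), with a 95% interval of −1.66 to −0.17. Leaving out fl/fl 1 gave −0.55, and leaving out fl/fl 2 gave −1.47, which passed (adjusted p = 0.00367, edgeR). Per kilobase, Ptgs2 was 2.92 and 12.7 times Ptgs1 in fl/fl 1 and 2, and 15.7 and 8.88 times Ptgs1 in wt/wt 1 and 2, so this ratio was lowest in fl/fl 1 and overlapped between genotypes.

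Ptges (ENSMUSG00000050737; chromosome 2, 30889471 to 30929863, minus strand) encodes the inducible microsomal prostaglandin E synthase, which acts downstream of COX-2. Ptges held 11.1 and 4.17 CPM in fl/fl libraries 1 and 2, and 5.57 and 4.16 CPM in wt/wt libraries 1 and 2. Here fl/fl 1 was high and fl/fl 2 was level with the lower wt/wt library. The log2 fold change of 0.65 ± 0.49 (SE) did not pass (adjusted p = 0.506, edgeR), leaving out fl/fl 1 giving −0.26 and leaving out fl/fl 2 giving 1.19. Ptgs1 and Ptges thus had more in fl/fl 1 than in fl/fl 2, by 2.23-fold and 2.66-fold, while Ptgs2 was higher in fl/fl 2, by 1.95-fold.

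Ptger4 (ENSMUSG00000039942; chromosome 15, 5206661 to 5244187, minus strand) encodes EP4, a prostaglandin E2 receptor that raises cyclic AMP. Ptger4 held 134 and 146 CPM in fl/fl libraries 1 and 2, and 493 and 312 CPM in wt/wt libraries 1 and 2. The fl/fl libraries lay close together, both below the lower wt/wt library. The means were 140 ± 7.99 CPM in fl/fl and 403 ± 128 CPM in wt/wt (SD, n = 2 each), and Ptger4 fell, with a log2 fold change of −1.53 ± 0.24 (SE; adjusted p = 0.0215, edgeR). It passed without fl/fl 1 (−1.50) and without fl/fl 2 (−1.58). Without wt/wt 1 or wt/wt 2 the call was lost at −1.20 and −1.82 (adjusted p = 0.159 and 0.052, edgeR). Genes on the opposite strand share 16.5% of its exonic length; Ttc33 among them had 322 and 339 counts in fl/fl and 172 and 410 counts in wt/wt, while Ptger4 had 2305 and 2550 counts in fl/fl and 10985 and 8467 counts in wt/wt. The macrophage and dendritic cell marker sums, on which 3 of 6 and 1 of 6 tested genes fell, were lower in the same fl/fl libraries, with macrophage sums of 298 and 212 CPM in fl/fl against 914 and 903 CPM in wt/wt and dendritic cell sums of 56.5 and 90.3 CPM in fl/fl against 202 and 190 CPM in wt/wt. The macrophage genes that fell were C1qa, C1qb and C1qc. Adgre1 on that list was at 150 and 156 CPM in fl/fl against 178 and 183 CPM in wt/wt (adjusted p = 0.406, edgeR). Cd163 and Cd5l overlapped between genotypes, so the lower macrophage sum was not shared by the whole list. The dendritic cell gene that fell was Itgax, whose protein the sort selected against. Without it the dendritic cell sums were 31.9 and 43.2 CPM in fl/fl against 43.8 and 56.5 CPM in wt/wt. The part of either cell type in the Ptger4 difference was not tested.

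Ptger2 (ENSMUSG00000037759; chromosome 14, 44988195 to 45003820, plus strand) encodes EP2, which also raises cyclic AMP. Ptger2 held 9.03 and 9.07 CPM in fl/fl libraries 1 and 2, and 11.7 and 15.8 CPM in wt/wt libraries 1 and 2. The libraries did not overlap, and the difference did not pass (log2 fold change −0.60 ± 0.27, SE; adjusted p = 0.244, edgeR; 95% interval −1.24 to 0.03). Per kilobase, Ptger4 was 11.6 and 12.5 times Ptger2 in fl/fl 1 and 2, and 32.9 and 15.5 times Ptger2 in wt/wt 1 and 2. EP4 was thus the more abundant receptor transcript in all 4 libraries, by a smaller ratio in fl/fl.

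The promoters of Ptgs2 and Ptger4 are shown because these were the most abundant of the genes that were lower in both fl/fl libraries, with capitals for the same 6 motifs. Ptgs2 lies at chr1:150099781-150100080 on the plus strand and Ptger4 at chr15:5244138-5244437 on the minus strand.
Ptgs2: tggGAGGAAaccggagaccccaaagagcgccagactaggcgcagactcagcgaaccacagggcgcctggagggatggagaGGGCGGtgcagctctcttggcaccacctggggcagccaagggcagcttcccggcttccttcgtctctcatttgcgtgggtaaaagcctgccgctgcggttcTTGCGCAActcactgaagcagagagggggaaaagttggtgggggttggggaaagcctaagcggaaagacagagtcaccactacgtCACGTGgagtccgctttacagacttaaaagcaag
Ptger4: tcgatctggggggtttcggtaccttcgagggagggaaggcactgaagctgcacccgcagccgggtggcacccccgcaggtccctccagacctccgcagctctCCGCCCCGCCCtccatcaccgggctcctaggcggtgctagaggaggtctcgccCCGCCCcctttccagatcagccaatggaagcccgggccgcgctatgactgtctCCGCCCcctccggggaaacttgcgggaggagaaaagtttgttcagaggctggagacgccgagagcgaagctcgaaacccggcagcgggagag
Ptgs2 held a GAGGAA core at −247, a GC box at −170, the palindrome TTGCGCAA, which matches C/EBP on both strands, at −69 and an E-box at 17. Of all promoters, 10.8% held a C/EBP match and 7.15% an E-box. Ptger4 held 4 GC boxes, all as CCGCCC on the strand opposite the gene, at −148, −143, −95 and −42, the first pair overlapping. Among the 8 promoters no match was found to TATAAA or TGANTCA, which occurred in 13.6% and 7.81% of all promoters.

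**Figure D3:**
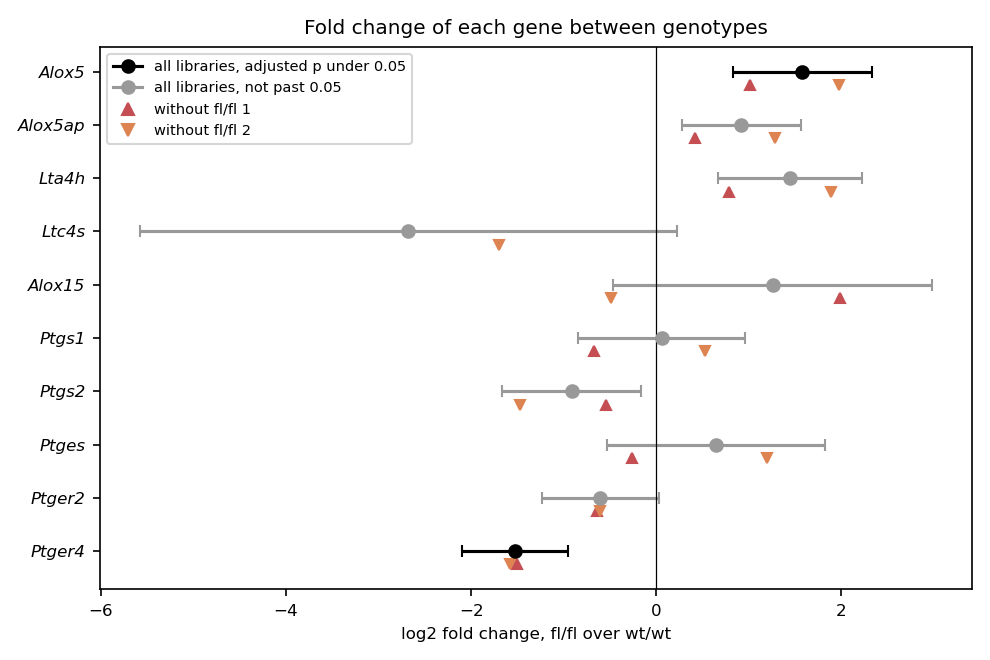
Log2 fold change of fl/fl over wt/wt (horizontal axis) for each gene with its 95% interval, black where the adjusted p was under 0.05 and grey otherwise. Triangles give the value without fl/fl 1 (up) or fl/fl 2 (down); that of Ltc4s without fl/fl 1 is left out because fl/fl 2 had 0 counts. Ptger4 and Ptger2 moved little with either fl/fl library left out, while Ptgs1, Ptges and Alox15 changed sign.

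Levels were compared between genes as CPM per kilobase of exon. In fl/fl, Alox5ap was the most abundant at 123 ± 48.1 (SD, n = 2), above Ptgs2 at 47.7 ± 21.8, Lta4h at 35.7 ± 17.7, Alox5 at 23.0 ± 9.93 and Ptger4 at 21.0 ± 1.20. Each neighbouring pair among the last 4 overlapped between libraries. In wt/wt, Ptgs2 came first at 89.8 ± 13.9 CPM per kilobase (SD, n = 2), then Alox5ap at 65.1 ± 4.30 and Ptger4 at 60.6 ± 19.3, which overlapped, and then Lta4h at 13.1 ± 0.183. Alox5 and Ptgs1 were level in wt/wt, each at 7.67 CPM per kilobase. Alox5ap was above Ptgs2 in both fl/fl libraries, at 157 against 32.3 and at 89.2 against 63.0 CPM per kilobase, and below it in both wt/wt libraries, at 68.2 against 99.6 and at 62.1 against 80.0 CPM per kilobase. Ptgs1, Alox15, Ptges and Ptger2 averaged 7.99 to 1.74 CPM per kilobase in fl/fl, each overlapping its neighbour, and Ltc4s was last in both genotypes. Averaged over the 4 libraries, Alox5ap, Ptgs2 and Ptger4 were above 95.7%, 94.3% and 90.6% of tested genes on this scale, and Ltc4s was above 15.2%.

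Of 60 other genes of eicosanoid metabolism and signalling, 41 were tested, and 4 rose, 4 fell and 33 did not pass, beside the 2.69% higher and 3.16% lower of all tested genes. Their median log2 fold change was 0.01. Among the genes that rose, Mgst2, a membrane glutathione transferase that can also make leukotriene C4, was at 49.0 and 17.3 CPM in the fl/fl pair and at 3.91 and 3.28 CPM in the wt/wt pair (log2 fold change 3.21 ± 0.50, SE; adjusted p = 0.0212, edgeR). Leaving out fl/fl 1 gave 2.23 and leaving out fl/fl 2 gave 3.78. Ggt1, a gamma-glutamyltransferase that can turn leukotriene C4 into D4, was at 78.0 and 7.59 CPM in the fl/fl pair and at 0 and 0.405 CPM in the wt/wt pair (adjusted p = 0.0322, edgeR; not called by limma-voom, adjusted p = 0.367). Its fitted change rests on 0 and 11 counts in wt/wt. Ptgr1, which inactivates leukotriene B4 and prostaglandin metabolites, was at 56.2 and 40.3 CPM in the fl/fl pair and at 13.8 and 16.3 CPM in the wt/wt pair (log2 fold change 1.68 ± 0.23, SE; adjusted p = 0.0163, edgeR). Fpr2, a formyl peptide receptor also studied as a receptor of lipoxin A4, was at 175 and 71.4 CPM in the fl/fl pair and at 29.1 and 30.5 CPM in the wt/wt pair (log2 fold change 2.05 ± 0.39, SE; adjusted p = 0.0342, edgeR), at 1.22 without fl/fl 1. All 4 had more in fl/fl 1 than in the second fl/fl library, as did the summed neutrophil and monocyte markers, whose part was not tested. Chil3 made up most of the monocyte sum of fl/fl 1, and the monocyte markers Ccr2 and Plac8 were higher in the second fl/fl library.

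Among the genes that fell, Cysltr1, a receptor for cysteinyl leukotrienes, was at 21.8 and 12.0 CPM in the fl/fl pair and at 45.4 and 47.9 CPM in the wt/wt pair. Its log2 fold change was −1.46 ± 0.29 (SE), with adjusted p = 0.0372 (edgeR). Abcc1, a pump that exports leukotriene C4, was at 23.9 and 30.9 CPM in the fl/fl pair and at 56.6 and 56.5 CPM in the wt/wt pair (log2 fold change −1.04 ± 0.19, SE; adjusted p = 0.0301, edgeR). Tbxas1, thromboxane A synthase, was at 74.7 and 70.7 CPM in the fl/fl pair and at 137 and 146 CPM in the wt/wt pair (log2 fold change −0.96 ± 0.15, SE; adjusted p = 0.0215, edgeR). Cmklr1, the chemerin receptor also studied as a receptor of resolvin E1, was at 56.8 and 27.8 CPM in the fl/fl pair and at 141 and 116 CPM in the wt/wt pair (log2 fold change −1.60 ± 0.33, SE; adjusted p = 0.0397, edgeR). For each of these 4 genes both fl/fl libraries were below both wt/wt libraries, and all 4 passed also without fl/fl 1 and without fl/fl 2, Cmklr1 being at −2.24 and −1.17. Without wt/wt 1 or wt/wt 2, 0 of the 8 genes that rose or fell passed in edgeR, as was the case over all genes, where 1576 and 2333 had an unadjusted p under 0.05.

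By role, the phospholipases had 0 calls among 6 tested by edgeR (2 had an unadjusted p under 0.05, as did 22.5% of all tested genes), against 1 call by DESeq2 and 0 by limma-voom. The most abundant of them, Pla2g7, which inactivates platelet-activating factor, was at 372 and 273 CPM in the fl/fl pair and at 190 and 183 CPM in the wt/wt pair (adjusted p = 0.0668, edgeR), and Pla2g15, a lysosomal phospholipase, was at 65.6 and 85.9 CPM in the fl/fl pair and at 82.3 and 98.0 CPM in the wt/wt pair. An opposite-strand gene shares 11% of the exonic length of Pla2g7. Besides Tbxas1, 7 prostanoid synthases did not pass, among them Ptges3, the cytosolic prostaglandin E synthase and HSP90 partner, at 81.9 and 75.8 CPM in fl/fl and 84.2 and 72.5 CPM in wt/wt. Fam213b, a prostaglandin F synthase, was at 9.55 and 11.8 CPM in the fl/fl pair and at 15.3 and 19.6 CPM in the wt/wt pair (adjusted p = 0.163, edgeR).

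None of 4 tested further prostanoid receptors passed in edgeR, DESeq2 or limma-voom, and 0 had an unadjusted p under 0.05 in edgeR. The prostacyclin receptor gene Ptgir was at 16.3 and 24.7 CPM in the fl/fl pair and at 15.2 and 18.6 CPM in the wt/wt pair, and Ptgdr2, a prostaglandin D2 receptor, was at 0.582 and 1.31 CPM in the fl/fl pair and at 1.75 and 2.39 CPM in the wt/wt pair, with 39% of its exonic length shared with an opposite-strand gene. Hpgd, which starts the breakdown of prostaglandins, was at 16.1 and 52.3 CPM in the fl/fl pair and at 43.7 and 41.3 CPM in the wt/wt pair, so fl/fl 1 alone was low. Ltb4r1, the high-affinity leukotriene B4 receptor, was at 214 and 134 CPM in the fl/fl pair and at 82.2 and 103 CPM in the wt/wt pair, without overlap and without passing (log2 fold change 0.91 ± 0.25, SE; adjusted p = 0.0875, edgeR). Cyp4f18, which degrades leukotriene B4 in mouse neutrophils, was at 280 and 231 CPM in the fl/fl pair and at 364 and 361 CPM in the wt/wt pair (adjusted p = 0.139, edgeR). Cotl1, a 5-lipoxygenase-binding protein, was at 1095 and 730 CPM in the fl/fl pair and at 878 and 1087 CPM in the wt/wt pair, and Mgst3, another membrane glutathione transferase, was at 12.7 and 12.6 CPM in the fl/fl pair and at 10.7 and 9.87 CPM in the wt/wt pair.

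**Figure D4:**
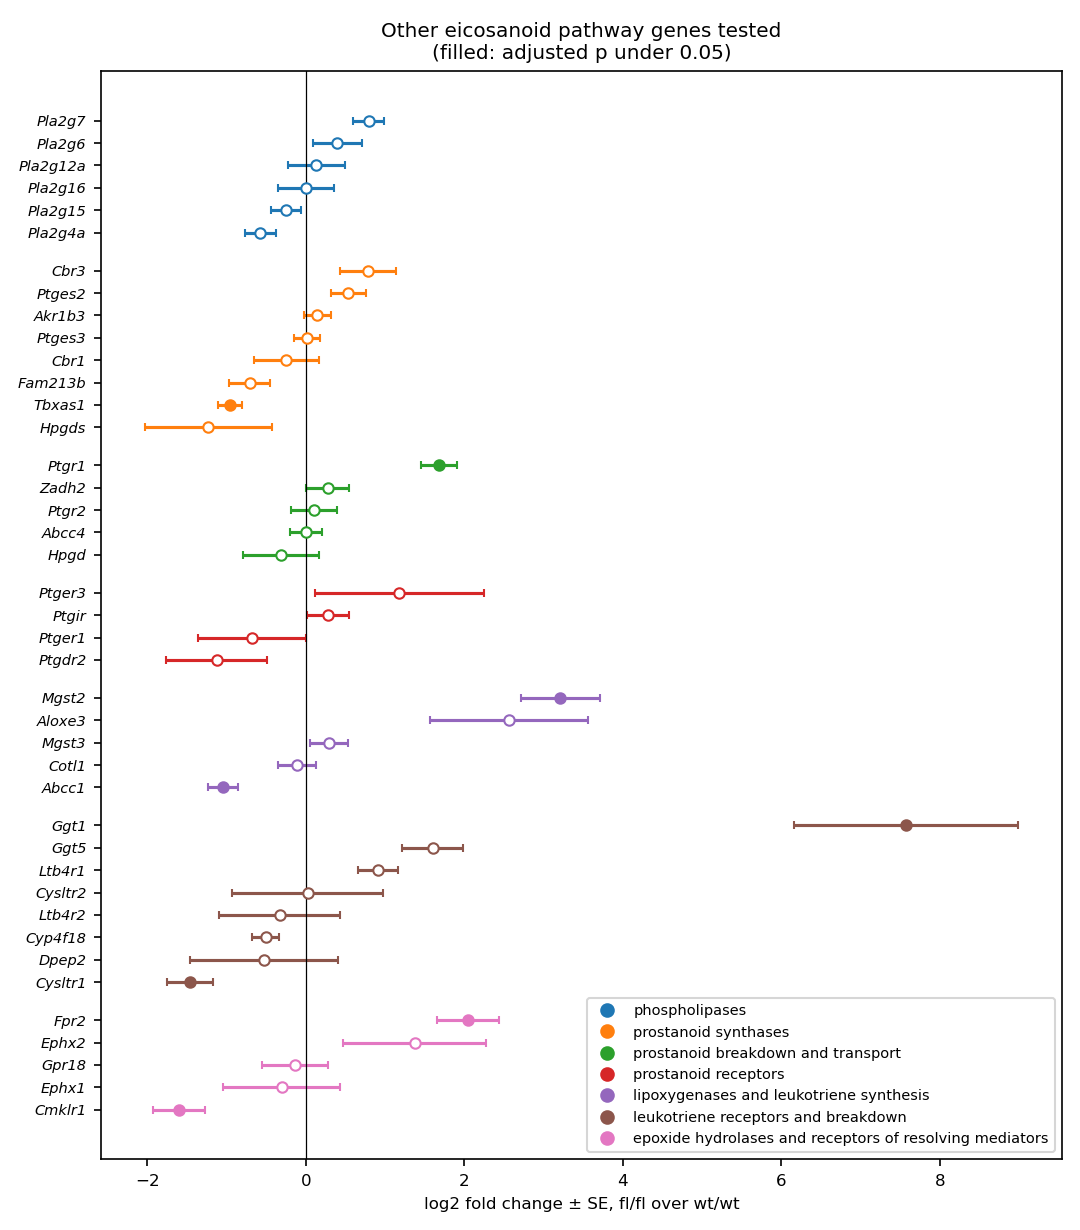
Log2 fold change ± SE of fl/fl over wt/wt (horizontal axis) for the 41 tested genes of the wider pathway, grouped by role in colour; filled points have an adjusted p under 0.05. The 4 filled points right of 0 are Ptgr1, Mgst2, Ggt1 and Fpr2, and the 4 left of 0 are Tbxas1, Abcc1, Cysltr1 and Cmklr1.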

How the data were processed

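For the 4 libraries, the authors deposited raw counts by Ensembl identifier in 1 table. The submitters' processing notes list STAR 2.5.0, Trimmomatic 0.33, FastQC 0.11.5 and the GRCm38 build; how reads were assigned to genes, with which strand setting and annotation, is not given in the sources used here. Gene symbols, positions and exonic lengths came from GENCODE M21 (GRCm38), which held 55141 of 55487 identifiers. Groups came from the sample titles.

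Counts were tested in R 4.3.3 with edgeR 4.0.16: genes kept by filterByExpr at a minimum count of 10 were scaled by TMM and entered the quasi-likelihood F test of fl/fl against wt/wt without covariates, with two-sided p-values adjusted over 13496 genes. Fold changes use a prior count of 0.125; dividing the size of the log2 fold change by the root of the F statistic gave the SE, and intervals are 95% from the moderated t distribution, not adjusted for the number of genes. The steps were tested on simulated data. Floors of 3 counts cover counting error only. The genes and lists were chosen with earlier results of these data known. Beside the 10 genes, Il10ra was named as the floxed receptor chain, which was assumed since the labels do not name the chain, as was every other pathway gene that passed and the 2 most abundant of each role; further genes were named after their values were seen. Marker lists of monocytes (0 of 7 rose, 1 fell), basophils and mast cells (1 of 9 rose), T cells (0 of 1), B cells (0 of 2) and hepatocytes (0 of 5) were also counted.

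Alternatives were RLE and upper quartile factors, scaling by library size only, no filter on low counts, a CPM filter of 5, DESeq2 1.42.0, limma-voom (limma 3.58.1), the replicate number as a block, and leaving out each library.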

Additional observations from a re-analysis of the deposited data

How the results depend on the processing

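Over all genes 790 were called, against 2088 with no filter, 1618 by DESeq2, 1215 with the replicate number as a block and 0 to 1477 with single libraries left out. Both fits that lack a wt/wt library gave 0 calls in edgeR, with 1576 (no wt/wt 1) and 2333 (no wt/wt 2) genes at an unadjusted p under 0.05; the fl/fl pair alone then sets the spread, and the wt/wt pair does in the fits that lack a fl/fl library, so the lone library is taken to vary like the other pair. Of the 10 genes, 1 was called higher, against 2 with library size only, with upper quartile factors and with the CPM filter, 4 with no filter, 3 by DESeq2 and 3 with the replicate block. It was 0 to 3 with single libraries left out. The number called lower was 1, against 2 with no filter and by DESeq2, and 0 to 2 with single libraries left out. Ptger4 and Alox5 each passed in 10 of 12 alternatives, Lta4h in 8, Alox5ap in 4, Ptgs2 in 3 and Alox15 in 2; the cause was not tested. Of the other pathway genes, 4 were called higher, against 8 with no filter and 7 by DESeq2, and 0 to 8 with single libraries left out, and 4 were called lower, against 0 to 5 with single libraries left out.

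Some uncalled genes changed sign. Ptgs1 was at −0.046 with limma-voom, at −0.027 with the replicate block and, leaving out each library, between −0.67 and 0.53, Ptges from −0.26 to 1.19, Alox15 from −0.48 to 1.99, Hpgd from −1.40 to 0.26, Ptgir from −0.048 to 0.51 and Cotl1 from −0.47 to 0.16. Ptges3 was at −0.0061 with RLE factors, −0.0028 with library size only, −0.017 with upper quartile factors, −0.0018 with no filter, −0.012 with the CPM filter and −0.0061 with DESeq2, and between −0.092 and 0.074 leaving out each library. The labels do not say if the replicate numbers pair the samples. Deviations of same-numbered libraries correlated at 0.0215 across genes, but with 2 libraries per genotype this value cannot exclude pairing. With the block, Lta4h and Alox5ap passed (adjusted p = 0.0127 and 0.0398, edgeR). Ltc4s gave no value under the CPM filter, and its 5 counts in fl/fl and 48 in wt/wt limit any statement on it.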
